A study of Mus musculus with 29 samples.

Results

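The comparison described here is of TdTomato-positive podocytes sorted 1 day after an injection of the immunotoxin LMB2 with TdTomato-positive podocytes of mice that the labels place at day 0. It holds 8 of the 29 one-colour Agilent arrays of the study, chosen by the population and the day in the sample labels: 4 arrays at day 1 (mice MC125, MC541, MC542 and MC831) and 4 at day 0 (mice MC122, MC731, MC742 and MC753). EGFP-positive podocytes of the same mice, 3 arrays at day 1 and 4 at day 0, served for comparison. All mice were male Pod-hCD25T/G animals on a C57BL/6J background, aged 8 weeks. Per the labels' protocol a heminephrectomy preceded the injection of 25 ng LMB2 per gram of body weight, and the labels do not say if day 0 mice had the surgery as well. Surgery and toxin therefore cannot be told apart by this comparison alone. LMB2 is a fusion of an anti-CD25 antibody fragment, specific for the human receptor, with a part of Pseudomonas exotoxin. The labels do not explain the colours. As the mouse model is known, TdTomato marks podocytes that carry human CD25 and can take up the toxin, and EGFP marks podocytes that do not carry it. The comparison thus asks what the targeted podocytes expressed at an early time after the toxin.

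Podocytes are the epithelial cells on the outer face of the glomerular capillary, and their interlocking foot processes and slit diaphragms form the last layer of the kidney filter. Pseudomonas exotoxin is cut by furin, moves back to the endoplasmic reticulum (ER) with the KDEL receptors, enters the cytosol and modifies elongation factor 2 at its diphthamide residue, which stops protein synthesis. Cells in which translation is blocked are known to keep or superinduce short-lived mRNAs of the immediate early, NF-kB and chemokine genes.

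Between 54.3% and 64.8% of the spots were flagged well above background on the day 1 arrays and between 49.1% and 62.1% on the day 0 arrays. The means were 58.3 ± 4.7% at day 1 and 55.3 ± 5.45% at day 0 (SD, n = 4 each), and an exact two-sided permutation test gave p = 0.429, where 0.0286 is the smallest p it allows. No spot was saturated, and the number of arrays limits the precision. Correlations across genes between arrays were 0.964 to 0.981 within day 1 and 0.977 to 0.988 within day 0. Each of the 4 slides, all scanned once, held 1 day 1 and 1 day 0 TdTomato array, so that every change can be read within each slide. The day 1 arrays always had the same position on the slide and the day 0 arrays another, and that position cannot be told apart from the day. In bulk arrays fewer cells of a type and less RNA per cell cannot be told apart either.

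The 4 day 1 arrays did not respond to the same extent. Of the 1070 genes that were called higher by at least 4-fold, mouse MC541 had the lowest day 1 value for 919, and of the 323 called lower by at least 4-fold it had the highest day 1 value for 271. The median change from the day 0 mean over the first set was 3.48, 2.31, 3.13 and 3.24 on the log2 scale in MC125, MC541, MC542 and MC831. Over the second set it was -2.81, -1.56, -2.12 and -2.41. MC541 changed in the same direction as the other 3 day 1 mice and less far, as the plot of the size of the change on each array shows. Without MC541 the test below called 3934 genes higher and 4232 lower, against 3725 and 4366 with it.

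**Figure D1:**
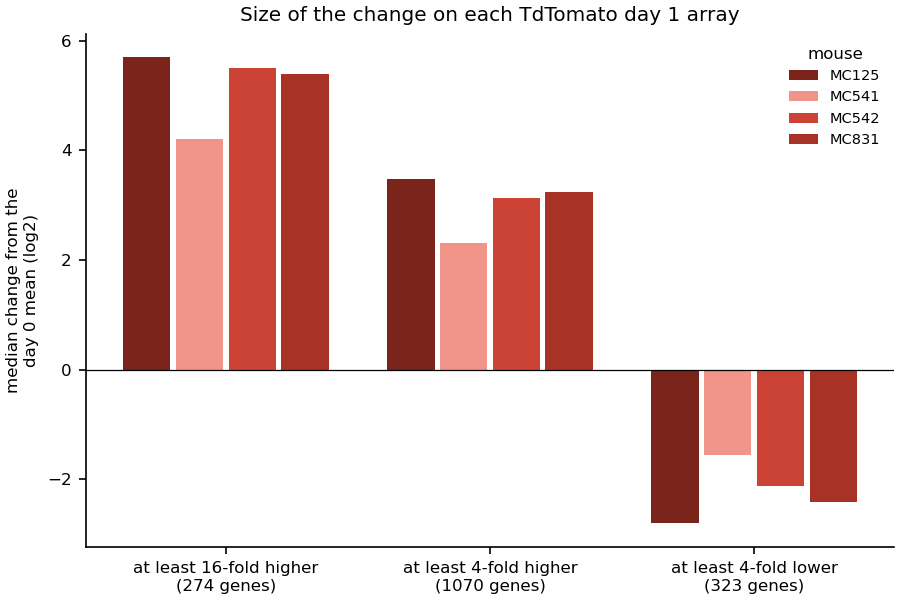
Median change of each TdTomato day 1 array from the mean of the 4 day 0 arrays (log2), over the genes called higher by at least 16-fold, higher by at least 4-fold and lower by at least 4-fold. Each bar is 1 mouse and the bars of MC541 are the shortest in all 3 sets. The sets were chosen on the mean of the same 4 arrays.

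Podocyte markers were bright on all 8 arrays. Nphs1, which encodes the slit diaphragm protein nephrin, stood at 7.13 ± 0.17 at day 1 and 7.60 ± 0.22 at day 0 (SD, n = 4 each). Levels here and below are log2 signals after subtraction of each array's 75th percentile, so that 0 is the level of a spot brighter than 75% of the spots. Wt1, Podxl and Synpo lay far above 0 on all 8 arrays as well. Il2ra, the mouse gene of CD25, was not well above background on any of the 8 arrays, and the human transgene was not analysed here.

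One day after the toxin 51.8% of the genes measured in TdTomato podocytes differed from day 0. Limma called 3725 of 15628 genes higher (23.8%) and 4366 lower (27.9%) at a Benjamini-Hochberg adjusted p under 0.05. The rises reached further than the falls. At least 4-fold changes were called for 1070 genes upward (6.85%) and 323 downward (2.07%), and at least 16-fold changes for 274 upward (1.75%) and 0 downward (0.0%). The 4 day 1 arrays did not overlap the 4 day 0 arrays for 6997 genes (44.8%), 6782 genes were also called (43.4%), and 7881 genes (50.4%) were called and moved the same way on all 4 slides. With so many calls, a gene list is described below by its counts and its median beside those of all genes: 23.8% higher, 27.9% lower and a median change of -0.13. The median of 20 of 29 lists other than cell types moved by over 1.5 times in at least 1 of 18 alternatives, 17 of them lists with a median of a size under 0.5, so no direction is read from a small median. Another set of 242 genes (1.55%) was not well above background on any day 0 array and was above it on all 4 day 1 arrays, and the opposite held for 5 genes (0.032%).

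Large rises were more frequent among dim genes than among bright ones. The genes were cut into 5 classes of like size by their mean over all 29 arrays. In the dimmest class 487 were called higher and 169 lower of 3126, and 310 of the rises were at least 4-fold. In the brightest class 859 were called higher and 1086 lower of 3126, and 122 of those rises were at least 4-fold. The filter asked for only 3 of 29 arrays above background, so a gene could pass it through the TdTomato day 1 arrays alone. Such a gene has a low mean over all 29 arrays, while a gene that fell and stayed bright elsewhere does not. The difference between the classes is therefore in part set by the filter and the classing. Where a gene was not above background on any day 0 array, its fold is a lower bound, written "at least", taken from the dimmest signal well above background on each array. Where only some arrays of the lower day were above background their number is given, and the fold then rests in part on signals not above it. Of the genes named below, Cxcl16, Zhx2, Lama1 and Ccna2 were above background on 3 of 4 day 0 arrays, and Kdelr3 and Gpt2 on 3 of 4 day 1 arrays. Normexp background correction with an offset of 50, which pulls dim values together by its construction, made the change smaller by more than 1.5 times for 40 of the 130 called genes considered for naming. Epha8 kept 6.63 of 10.93 under it and Cxcl2 kept 1.28 of 5.52.

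EGFP podocytes from the same glomeruli showed few of these changes. Between day 1 and day 0, limma called 4 genes higher (0.0256%) and 0 lower (0.0%) in EGFP cells (n = 3 and 4). Before adjustment 467 of 15628 genes had p under 0.05 in either direction, a smaller share than the 0.05 that chance alone gives. No other tool was run. The 4 genes, Epha8, Kcnk10, Pkp1 and Dner, were also called higher in TdTomato cells. They were not stable: 0 genes were called without EGFP day 0 MC731 or MC742 or day 1 MC542, 2 without day 0 MC122 or MC753, 6 without day 1 MC541, and 0 with normexp correction or with only the EGFP groups in the fit. A test of the difference of the changes, TdTomato minus EGFP, called 2867 genes higher (18.3%) and 3137 lower (20.1%). For the 274 genes that were at least 16-fold higher in TdTomato cells the median change was 5.13 in TdTomato and 0.25 in EGFP, and 202 of them lay above 0 in EGFP (73.7%, against 46.0% of all genes). By mouse the EGFP median over these 274 genes was 0.48 in MC125, 0.04 in MC541 and 0.31 in MC542, and over all genes it was 0.11, -0.12 and -0.02 in the same mice. MC541 was thus the lowest of the 3 over both sets. TdTomato cells in the EGFP sort, as a source of these values, were not tested. Of the 242 genes above background only after the toxin in TdTomato cells, 200 were above it on no EGFP day 1 array and 2 on all 3.

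**Figure D2:**
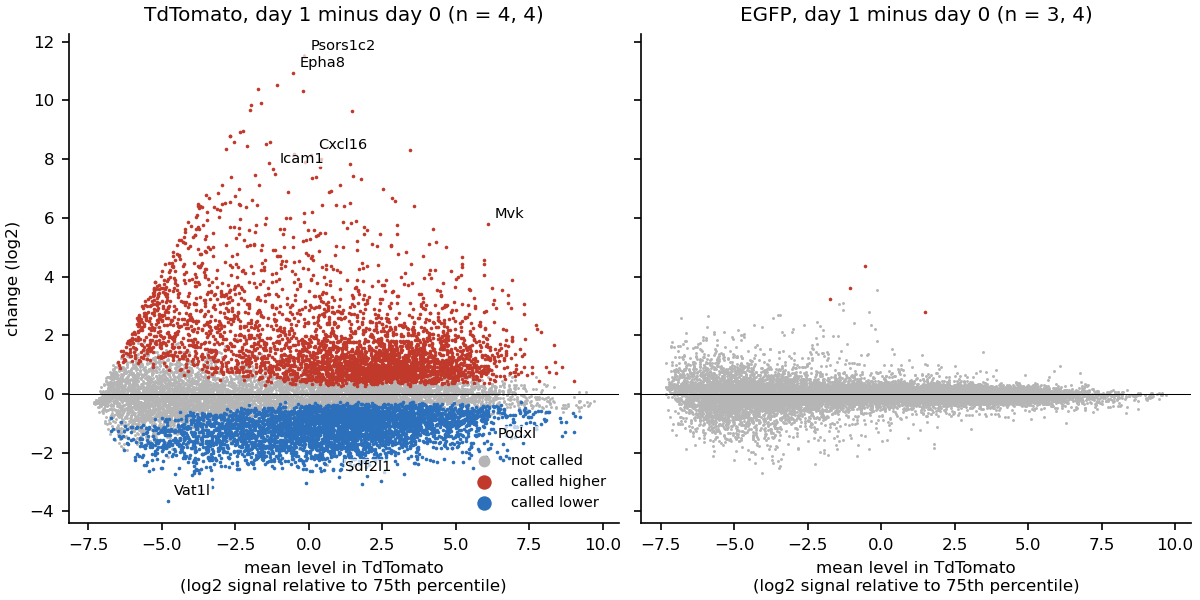
Change between day 1 and day 0 (log2) against the mean level of each gene in TdTomato cells, for TdTomato (left) and EGFP (right). Each point is 1 of 15628 genes, red and blue mark genes that limma called higher (3725 and 4) or lower (4366 and 0).

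The largest fitted change was that of Psors1c2, a gene of the psoriasis susceptibility region, with 6.88, 3.79, 6.06 and 5.69 on the day 1 arrays, against -5.98, -6.75, -5.79 and -5.10 on the day 0 arrays. The next was Epha8, an Eph receptor tyrosine kinase, with 6.12, 3.70, 6.70 and 3.22 on the day 1 arrays, against -5.37, -5.87, -6.98 and -5.76 on the day 0 arrays. Psors1c2 was above background on 1 of 4 day 0 arrays and Epha8 on none, while both were above it on every day 1 array, and in neither case did the groups overlap. Psors1c2 changed by log2 11.51 ± 0.70, adjusted p = 5.2e-12, measured against day 0 signals of which 3 were not above background. Epha8 rose at least 989-fold (log2 10.93 ± 0.71, adjusted p = 1.5e-11). Among the 10 largest rises were also Pkp1, the desmosomal plaque protein plakophilin 1 (at least 620-fold), Dner, a Notch-binding neuronal membrane protein (at least 377-fold), and Gli1, the transcription factor read out as a target of Hedgehog signalling (at least 338-fold). Col22a1, a collagen chain of tissue junctions (at least 259-fold), Ptprn, a protein of neuroendocrine secretory granules (at least 244-fold), and Elf5, an ETS factor of secretory epithelia (at least 162-fold), likewise came up from below background. Tmprss9, a membrane serine protease above background on 1 of 4 day 0 arrays, changed by log2 10.33 ± 0.48, adjusted p = 5.5e-14.

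Kcnk10, a background (leak) potassium channel, was measurable on every array. It had 7.00, 5.35, 6.28 and 6.57 on the day 1 arrays, against -2.86, -3.87, -3.85 and -2.77 on the day 0 arrays, and it rose 795-fold (log2 9.64 ± 0.41, adjusted p = 2e-14). In EGFP cells it stood at -0.73, -1.63 and -0.42 at day 1 and -3.86, -3.76, -4.01 and -3.21 at day 0, so the 3 EGFP day 1 arrays lay above the 4 EGFP day 0 arrays and below every TdTomato day 1 array. Epha8 stood at -2.26, -3.27 and 0.02 in EGFP cells at day 1 and -5.98, -6.97, -6.12 and -5.73 at day 0, the same order. In the list of potassium channels 5 (20.8%) of 24 measured genes were called higher and 2 (8.33%) lower (median -0.46). The count called higher was 3 without day 1 MC125 or MC831 and 2 with normexp correction.

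The falls were smaller. Vat1l, a relative of the vesicle amine transport protein, had -6.47, -6.21, -7.19 and -6.63 on the day 1 arrays, against -2.90, -3.60, -2.44 and -2.95 on the day 0 arrays, and it fell at least 4.54-fold (log2 -3.65 ± 0.40, adjusted p = 4.9e-08). It was above background on all 4 day 0 arrays and on no day 1 array. Sucnr1, the succinate receptor, changed by log2 -3.26 ± 0.61, adjusted p = 8.1e-05, Mgll, the lipase of monoacylglycerols, by log2 -3.08 ± 0.67, adjusted p = 0.00039, and Trp53i11, a p53-inducible gene, by log2 -2.96 ± 0.20, adjusted p = 3.6e-11. Other large falls were those of Mnd1, a meiotic recombination gene (-3.15 ± 0.34), Gmnn, the inhibitor of DNA replication licensing geminin (-2.89 ± 0.29), Ccdc71l (-3.02 ± 0.42), the inward rectifier Kcnj12 (-2.79 ± 0.26) and Syna, the retrovirus-derived fusion gene syncytin A (-2.75 ± 0.32). Sucnr1 and Syna were above background on 2 of 4 day 1 arrays, and Mnd1 and Gmnn on 3 of 4.

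NF-kB, a family of dimeric transcription factors held in the cytosol by IkB proteins, drives inflammatory and survival genes and its own inhibitors. Most genes of the family, its feedback and its targets rose. Of 37 genes listed 34 passed the filter on dim probes, and of these 22 (64.7%) were called higher and 3 (8.82%) lower, with a median change of 2.17, and 18 of them were called higher by at least 4-fold. Within the 4 slides the median of the list was between 1.52 and 2.65. With the slide as a block 5 members were called lower. In EGFP cells the median was -0.11 and no member was called, and the test of the difference passed for 22 upward and 3 downward.

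Among the subunits, Relb rose by 4.68, Nfkb2 by 4.70, Nfkb1 by 3.36 and Rela by 1.82 on the log2 scale. Rel, the other subunit gene, was also called higher and was above background on 3 of 4 day 1 arrays and on no day 0 array. Among the nuclear and cytosolic IkB proteins, Bcl3 had 8.49, 6.42, 7.63 and 7.94 on the day 1 arrays, against -0.83, -1.27, -0.29 and -0.44 on the day 0 arrays. Bcl3 rose 321-fold (log2 8.33 ± 0.42, adjusted p = 2.3e-13), and even its lowest day 1 array was far above the highest day 0 array. Nfkbid, another nuclear IkB protein, had 6.02, 4.01, 5.75 and 5.48 on the day 1 arrays, against -2.67, -2.75, -2.30 and -2.42 on the day 0 arrays, and it rose 231-fold (log2 7.85 ± 0.40, adjusted p = 2.2e-13). Nfkbie (3.12), Nfkbib (2.43) and Nfkbia (1.08) were called higher by less. The ubiquitin-editing brake Tnfaip3 rose by 2.46 and its partner Tnip1 by 2.23, whereas Tnip2 fell by 0.97 (log2 -0.97 ± 0.17, adjusted p = 3.4e-05). The subunits and inhibitors named here besides Bcl3, Nfkbid and Tnip2 were chosen after their values were seen.

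Of the targets, Ltb, the membrane anchor chain of lymphotoxin, had 2.48, 0.35, 3.24 and 2.46 on the day 1 arrays, against -6.11, -7.39, -6.25 and -5.51 on the day 0 arrays. It was not above background on any day 0 array and rose at least 136-fold (log2 8.45 ± 0.52, adjusted p = 6e-12). Icam1, the adhesion molecule that binds leukocyte integrins, had 2.86, 1.51, 2.47 and 3.63 on the day 1 arrays, against -4.90, -5.99, -4.62 and -4.63 on the day 0 arrays, with 1 of 4 day 0 arrays above background. It rose (log2 7.65 ± 0.56, adjusted p = 9.6e-11), measured mostly against signals not above background, and its lowest day 1 value was that of MC541. The cytokine Tnf (at least 20.1-fold) and the inhibitors of apoptosis Birc3 (log2 5.12) and Birc2 (2.29), named after their values were seen, were called higher too. The 3 members called lower were Traf1, a TNF receptor adaptor (log2 -1.04 ± 0.22, adjusted p = 0.00027), Bcl2l1, the survival protein Bcl-xL (log2 -1.03 ± 0.20, adjusted p = 0.0001), and Tnip2. Sod2, a mitochondrial dismutase and common NF-kB target, did not pass (log2 -0.33 ± 0.19, adjusted p = 0.15), although it passed with quantile normalization or with the slide as a block.

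The DNA letters that NF-kB is known to bind, the kB consensus, were searched on both strands of RefSeq promoter windows (GRCm38.p6) that run from 250 bases before to 50 after a gene's start. A window was given for 28 members of the NF-kB list, and 12 of them held the consensus (42.9%), against 1018 of 12408 tested genes with a window (8.2%). Of the 12 members, 9 were called higher and 1 lower. Of the 1018 tested genes with the consensus 295 were called higher and 272 lower. Of the 34 measured list members 22 were called higher, with or without it. Among the chemokines and cytokines 5 of 14 windows held it, and 4 of these genes were called higher. Over all genes called higher the share was 9.93%, over those at least 16-fold higher 16.7%, and over all genes called lower 7.76%. The list holds genes known as NF-kB targets, so its share describes the list and not these arrays. The windows of the pair of members with the largest rises that hold the consensus are shown 5′ to 3′ with the match in capitals: Ltb (chr17:35194257-35194556, plus strand) and Bcl3 (chr7:19822706-19823005, minus strand).
Ltb: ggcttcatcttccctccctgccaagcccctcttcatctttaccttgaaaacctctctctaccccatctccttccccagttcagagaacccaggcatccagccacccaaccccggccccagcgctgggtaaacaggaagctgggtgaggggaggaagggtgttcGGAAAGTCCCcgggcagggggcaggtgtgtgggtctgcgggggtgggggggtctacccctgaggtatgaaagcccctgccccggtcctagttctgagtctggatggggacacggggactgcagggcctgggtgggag
Bcl3: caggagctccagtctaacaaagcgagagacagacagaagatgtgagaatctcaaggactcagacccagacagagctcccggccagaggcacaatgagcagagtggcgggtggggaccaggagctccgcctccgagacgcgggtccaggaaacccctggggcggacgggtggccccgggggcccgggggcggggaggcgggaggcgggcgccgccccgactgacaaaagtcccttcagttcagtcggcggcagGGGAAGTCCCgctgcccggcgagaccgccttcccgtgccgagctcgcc

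Chemokines and cytokines, the secreted signals that draw and instruct immune cells, rose more often than they fell. Of 34 genes listed 25 passed the filter on dim probes, and of these 13 (52%) were called higher and 4 (16%) lower, with a median change of 1.37, and 10 of the rises were at least 4-fold. The median was 0.16 with normexp correction, 0.35 over 33 genes without the filter on dim probes, 0.84 without day 0 MC731 and 2.12 without day 1 MC541, and 9 to 14 members were called higher over all alternatives. Cxcl16, a membrane-bound chemokine and scavenger receptor, had 5.07, 2.36, 4.75 and 4.50 on the day 1 arrays, against -4.15, -4.11, -3.47 and -4.19 on the day 0 arrays. The groups were far apart, although MC541 lay well under the other 3 day 1 mice, and the rise was 284-fold (log2 8.15 ± 0.46, adjusted p = 1.2e-12). In EGFP cells Cxcl16 stood at -2.86, -3.48 and -1.88 at day 1 and -4.03, -4.25, -3.09 and -3.54 at day 0. There the change was 0.99 and was not called.

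Cxcl10, a chemokine for activated T cells, had 6.83, 4.90, 5.35 and 6.39 on the day 1 arrays, against -0.19, -0.34, 0.63 and 0.37 on the day 0 arrays, and it rose 53.8-fold (log2 5.75 ± 0.45, adjusted p = 3.5e-10). Cxcl2, a neutrophil chemokine, rose at least 12.5-fold (log2 5.52 ± 0.49, adjusted p = 2.6e-09) and was above background on no day 0 array. Of the cytokine part of the list, Csf1, the macrophage growth factor, rose by 3.22 on its brightest probe, while its other probes gave 0.34 and 0.78. Il34, the other ligand of the same receptor, fell by 1.53 (log2 -1.53 ± 0.16, adjusted p = 2e-08), and Csf1 was chosen after its value was seen. Cxcl12, a constitutive podocyte signal to the endothelium, changed by log2 -0.69 ± 0.25, adjusted p = 0.024, a call lost without day 0 MC122 (-0.53) or day 1 MC831 (-0.60). Clcf1, a cytokine of the interleukin 6 family, fell (log2 -0.83 ± 0.32, adjusted p = 0.031), but not without day 0 MC122, MC731 or MC753 (-0.82, -0.82 and -0.64) nor without day 1 MC125 or MC542 (-0.58 and -0.77), nor with only the compared groups in the fit. Cx3cl1, fractalkine, did not pass (log2 0.13 ± 0.25, adjusted p = 0.71). The count of members called lower was 1 without day 0 MC122 and 2 without day 0 MC731, day 1 MC125 or day 1 MC831 or with only the compared groups in the fit, and the median of the list within slides was between 0.08 (the slide of MC541) and 2.37 (the slide of MC831).

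**Figure D3:**
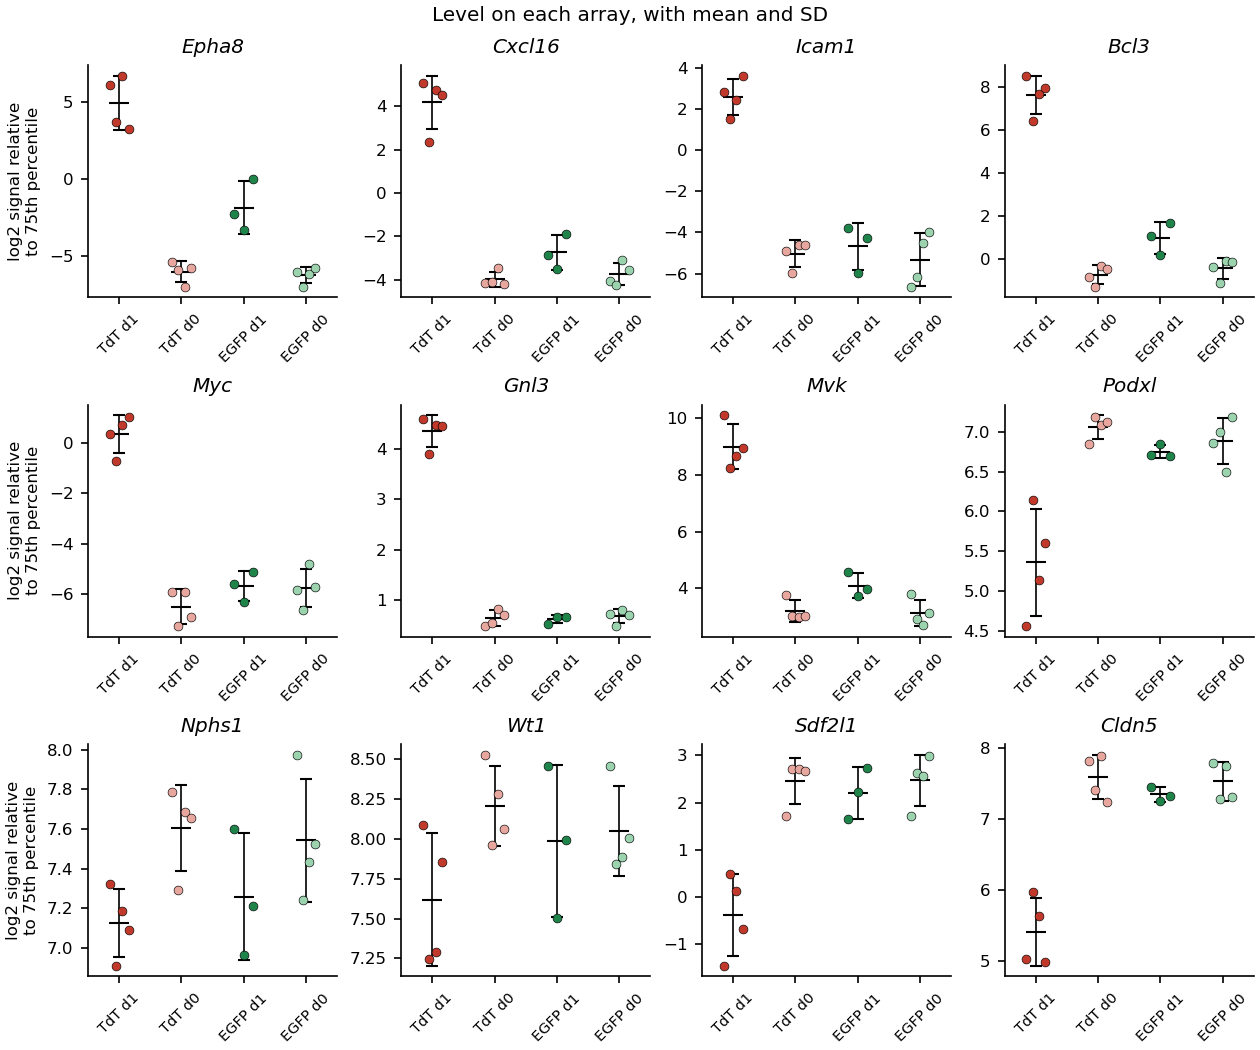
Level of 12 genes on each array (log2 signal minus the array's 75th percentile) in TdTomato (TdT) and EGFP podocytes at day 1 (d1) and day 0 (d0). Points are mice, the bar is the mean and the whisker the SD. For Epha8, Cxcl16, Icam1, Bcl3, Myc, Gnl3 and Mvk every TdTomato day 1 array lies above every TdTomato day 0 array, for Podxl, Sdf2l1 and Cldn5 every one lies below, and for Nphs1 and Wt1 the groups overlap.

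Immediate early genes, which cells switch on within minutes of a stimulus, rose more often than they fell. All 31 genes listed passed the filter on dim probes, and of these 15 (48.4%) were called higher and 5 (16.1%) lower, with a median change of 0.61. Myc, the growth regulator, had 0.37, -0.71, 0.70 and 1.02 on the day 1 arrays, against -5.90, -7.27, -5.90 and -6.90 on the day 0 arrays, and it rose at least 42.9-fold (log2 6.84 ± 0.44, adjusted p = 1.4e-11). No day 0 array was above background for Myc and all 4 day 1 arrays were. Egr4, a zinc finger factor, rose 42.7-fold (log2 5.42 ± 0.59, adjusted p = 5e-08) and Maff, a small Maf factor, 20-fold (log2 4.32 ± 0.31, adjusted p = 7.3e-11). The members that fell include Klf2 (log2 -2.30 ± 0.36, adjusted p = 8.1e-06) and Klf4 (log2 -1.35 ± 0.21, adjusted p = 8.2e-06), both Kruppel-like factors with vascular and podocyte roles. Jun, at a mean of 9.07 at day 1 and 9.32 at day 0, did not pass (log2 -0.25 ± 0.28, adjusted p = 0.49), and Fos, named after its value was seen, was called lower (-0.59). Egr2, another zinc finger factor, fell (log2 -0.77 ± 0.25, adjusted p = 0.013), but not with scaling to the median or without day 1 MC541 (-0.61). Without MC541 3 members were called lower.

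Of genes that damp or relay MAP kinases, 10 (35.7%) of 28 measured genes were called higher and 7 (25%) lower (median 0.24). The phosphatase Dusp14 rose 13.7-fold (log2 3.78 ± 0.31, adjusted p = 5.8e-10) and Gadd45b, an activator of the kinase MTK1 and an NF-kB target, 14.6-fold (log2 3.87 ± 0.25, adjusted p = 1.4e-11). The kinases Mapk14, the alpha form of p38 (log2 -1.48 ± 0.19, adjusted p = 7e-07), and Mapk9, a Jun kinase (log2 -1.35 ± 0.21, adjusted p = 7.7e-06), fell. In the EGF receptor family 2 (20%) of 10 measured genes were called higher and 3 (30%) lower (median -0.43). Nrg1, the ligand neuregulin 1, rose at least 231-fold (log2 8.53 ± 0.47, adjusted p = 1e-12). Egfr rose by 5.04 ± 0.48 on its brightest probe, while its other probes gave 1.11 and 2.01 and the mean of the probes 2.72. Erbb2, a co-receptor (log2 -1.58 ± 0.22, adjusted p = 1.5e-06), and Adam10, a protease that sheds ligands (log2 -1.72 ± 0.19, adjusted p = 6.3e-08), fell.

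Besides Epha8, Epha6 rose at least 11.4-fold among the Eph receptors and ephrins (log2 4.33 ± 0.43, adjusted p = 1.1e-08), and Ephb1 fell by 2.07 (log2 -2.07 ± 0.31, adjusted p = 4.6e-06). Efnb2, the ligand ephrin B2, fell by 1.19 (log2 -1.19 ± 0.38, adjusted p = 0.011), but not without day 0 MC742 (-0.85). In this family 6 (30%) of 20 measured genes were called higher and 6 (30%) lower (median -0.24), shares near those of all genes. In the TGF-beta pathway 12 (46.2%) of 26 measured genes were called higher and 6 (23.1%) lower (median 0.34). Ltbp2, a latent TGF-beta binding protein family member of the matrix, rose (log2 5.98 ± 0.49, adjusted p = 7e-10), with 1 of 4 day 0 arrays above background. Tgif1, a repressor of SMAD targets, had 6.28, 4.62, 5.88 and 6.04 on the day 1 arrays, against 1.04, 1.10, 1.67 and 1.28 on the day 0 arrays, and it rose 21.6-fold (log2 4.43 ± 0.27, adjusted p = 4.4e-12). Smurf1, a ubiquitin ligase for SMADs, fell by 1.42 (log2 -1.42 ± 0.36, adjusted p = 0.0018). Id3, a target of BMP signalling, fell by 1.39 (log2 -1.39 ± 0.50, adjusted p = 0.022), a call lost without day 0 MC731 or MC742 (-1.31 and -1.29) or day 1 MC541 or MC542 (-1.27 and -1.00). Of the Notch and Hedgehog genes, where Gli1 rose the most, 4 (17.4%) of 23 measured genes were called higher and 4 (17.4%) lower (median -0.12), and the sign of the median changed between settings. Gng4, a G protein gamma subunit and one of the largest differences from EGFP, rose at least 110-fold (log2 8.78 ± 0.44, adjusted p = 1.9e-13).

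Genes that build ribosomes in the nucleolus mostly rose, and the genes of the ribosomal proteins themselves did not. Of 53 genes listed 52 passed the filter on dim probes, and of these 38 (73.1%) were called higher and 0 (0%) lower, with a median change of 1.03, the lowest member at -0.64. Gnl3, nucleostemin, had 4.60, 3.90, 4.48 and 4.45 on the day 1 arrays, against 0.49, 0.55, 0.83 and 0.70 on the day 0 arrays, so the days were far apart next to the spread within each. It rose 13.1-fold (log2 3.71 ± 0.18, adjusted p = 1.1e-13). Nop58, a core protein of box C/D ribonucleoproteins, rose 8.68-fold (log2 3.12 ± 0.23, adjusted p = 1.1e-10), and Ltv1, an export factor of the small subunit, 5.84-fold (log2 2.54 ± 0.20, adjusted p = 4.3e-10). Ubtf, the activator of ribosomal DNA transcription, was among those that did not pass (log2 -0.64 ± 0.30, adjusted p = 0.082), but it was called lower in 6 alternatives: quantile normalization, scaling to the median, the mean of the probes, the slide or the mouse as a block, and without day 0 MC731. The list median was between 0.85 and 1.19 within the slides and 0.03 in EGFP cells.

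Nucleolar genes are known targets of Myc, which binds the E-box CACGTG. Of 45 nucleolar genes with a promoter window 11 held these letters (24.4%), against 10.7% of all tested genes with a window, and 10 of the 11 were called higher. Over all genes called higher the share was 13.4%. Of the 1328 tested genes with the letters 399 were called higher, and of the 52 measured list members 38 were, with or without them. The list holds genes known as Myc targets, so its share describes the list and not these arrays. A part of Myc in these rises was not tested. The window of Ltv1 (chr10:13193088-13193387, minus strand, GRCm38.p6), the member with the largest rise that holds an E-box, is shown with the match in capitals. The E-box reads the same on both strands.
Ltv1: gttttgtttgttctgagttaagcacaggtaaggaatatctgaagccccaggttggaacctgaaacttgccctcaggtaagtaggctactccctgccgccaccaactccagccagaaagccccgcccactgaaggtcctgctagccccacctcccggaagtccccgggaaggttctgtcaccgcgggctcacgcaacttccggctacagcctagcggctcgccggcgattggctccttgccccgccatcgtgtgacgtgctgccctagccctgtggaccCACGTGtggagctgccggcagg

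Cytosolic ribosomal protein genes, by contrast, had 1 (1.3%) call upward and 14 (18.2%) downward among 77 measured of 78 listed, with a median of -0.24 next to -0.13 for all genes. The call upward was Rpl18 (log2 0.73 ± 0.20, adjusted p = 0.004), which did not pass with scaling to the median. Rps24 (log2 -1.90 ± 0.21, adjusted p = 6.1e-08, with other probes at -1.05 and -0.96) and Rps20 (log2 -1.09 ± 0.23, adjusted p = 0.00026) fell the most. The number called lower was not stable and was 39 with quantile normalization, 35 with the slide as a block, 23 without day 1 MC125 and 6 to 9 without day 0 MC122 or MC742 or without day 1 MC541, MC542 or MC831. Genes of many ribosomal proteins have processed pseudogenes of near-identical sequence, and which of them a probe reads is uncertain. Of the translation factors 13 (37.1%) of 35 measured genes were called higher and 5 (14.3%) lower (median 0.24). Of the genes of mRNA decay 14 (45.2%) of 31 measured genes were called higher and 4 (12.9%) lower (median 0.43), or 2 lower with scaling to the median.

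Chaperones and folding enzymes of the ER fell almost without exception. All 23 genes listed passed the filter on dim probes, and of these 0 (0%) were called higher and 21 (91.3%) lower, with a median change of -1.66, which placed the median under the changes of all but 5.47% of the genes tested. No alternative setting called fewer than 21 lower, and within the slides the median was between -1.90 and -1.20. Sdf2l1, a partner of the ER chaperone BiP, had -1.46, 0.49, 0.12 and -0.68 on the day 1 arrays, against 1.72, 2.72, 2.71 and 2.66 on the day 0 arrays, and it fell 7.15-fold (log2 -2.84 ± 0.36, adjusted p = 5.1e-07). Manf, a secreted ER stress protein, had 0.65, 1.69, 1.87 and 0.95 on the day 1 arrays, against 2.94, 3.53, 3.98 and 3.52 on the day 0 arrays, and it fell 4.6-fold (log2 -2.20 ± 0.28, adjusted p = 5e-07). In both the highest day 1 array lay below the lowest day 0 array. The disulfide isomerase Pdia4 fell 4.3-fold (log2 -2.10 ± 0.27, adjusted p = 6.4e-07), and Dnajb9, a cochaperone of BiP (log2 -0.56 ± 0.25, adjusted p = 0.061), and Derl3, of ER-associated degradation (log2 -1.56 ± 0.71, adjusted p = 0.072), did not pass. Dnajb9 was called lower in 6 alternatives: quantile normalization, the mean of the probes, the slide or the mouse as a block, and without day 0 MC122 or day 1 MC542. Hspa5 (BiP itself, -1.12) and Xbp1, the transcription factor of the unfolded protein response (-1.33), were called lower too and were named after their values were seen. In EGFP cells the list median was -0.08, and the difference of the changes was called lower for 19 of 23 genes.

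The ER stress response element, CCAAT and CCACG with 9 bases of any kind between them, is the sequence through which the unfolded protein response is known to act on chaperone genes. It was searched on both strands of the same windows and was found in 20 of 12408 tested genes (0.161%). Of those genes 9 belong to the ER list, where they make up 45% of the 20 members with a window, and 8 of the 9 were called lower. Over all 20 genes that hold the element 10 were called lower and 2 higher, and 8 of those 10 are the list members just counted. Of the 23 measured list members 21 were called lower, with or without the element. The members of the list were written down as known targets of this response, so the share describes the list. The windows of the pair of members with the largest falls that hold the element are shown with the matches in capitals: Pdia6, a disulfide isomerase (chr12:17266339-17266638, plus strand, log2 -1.97), and Hsp90b1, the chaperone GRP94, with a match on each strand (chr10:86705395-86705694, minus strand, log2 -1.88), both in GRCm38.p6.
Pdia6: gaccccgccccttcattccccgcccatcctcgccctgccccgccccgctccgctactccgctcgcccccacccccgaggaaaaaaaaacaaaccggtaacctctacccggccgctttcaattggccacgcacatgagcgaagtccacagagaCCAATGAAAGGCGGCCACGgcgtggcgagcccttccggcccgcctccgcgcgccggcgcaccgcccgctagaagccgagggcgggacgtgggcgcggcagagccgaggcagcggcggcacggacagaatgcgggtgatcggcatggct
Hsp90b1: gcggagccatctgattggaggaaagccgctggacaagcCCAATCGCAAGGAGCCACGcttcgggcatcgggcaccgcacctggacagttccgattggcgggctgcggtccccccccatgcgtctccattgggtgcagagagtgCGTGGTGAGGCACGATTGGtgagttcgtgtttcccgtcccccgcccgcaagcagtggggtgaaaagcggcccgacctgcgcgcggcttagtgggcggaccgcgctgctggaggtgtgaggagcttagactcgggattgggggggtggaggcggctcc

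Cytosolic heat shock genes mostly fell as well. Of 22 genes listed 21 passed the filter on dim probes, and of these 4 (19%) were called higher and 13 (61.9%) lower, with a median change of -0.77. Hspa1a, the inducible heat shock chaperone of the cytosol, changed by log2 -2.27 ± 0.78, adjusted p = 0.017, a call lost without day 0 MC742 (-1.82) or day 1 MC831 (-1.85), and Hsph1, a large heat shock chaperone, by log2 -1.94 ± 0.50, adjusted p = 0.0019. Dnajb4, a J-domain cochaperone, rose 3.09-fold (log2 1.63 ± 0.19, adjusted p = 1.6e-07) and Hspa4, a nucleotide exchange factor of that family, 2.11-fold (log2 1.08 ± 0.23, adjusted p = 0.00036). Of genes downstream of ATF4 in the integrated stress response, 7 (22.6%) of 31 measured genes were called higher and 11 (35.5%) lower (median -0.22). Fgf21, a stress hormone that ATF4 induces, was above background on 3 of 4 day 1 arrays and on no day 0 array (log2 2.61 ± 0.44, adjusted p = 2e-05), and normexp correction left a change of 0.14 that did not pass. Slc3a2, the heavy chain of amino acid transporters, rose 6.61-fold (log2 2.72 ± 0.28, adjusted p = 2.5e-08), whereas Trib3, a pseudokinase target of ATF4, fell 4.74-fold (log2 -2.24 ± 0.36, adjusted p = 9.6e-06) and Gpt2, an alanine aminotransferase, 4.7-fold (log2 -2.23 ± 0.45, adjusted p = 0.0002).

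Genes on the route of the toxin through the cell gave more falls than rises. Of the list, 2 (10.5%) of 19 measured genes were called higher and 7 (36.8%) lower (median -0.24). Eef2, elongation factor 2 and the target of the toxin, had 7.36, 6.24, 6.51 and 6.95 on the day 1 arrays, against 6.72, 6.34, 6.59 and 6.45 on the day 0 arrays. The groups overlapped and the change was not called (log2 0.24 ± 0.19, adjusted p = 0.32). Of the genes that make the diphthamide residue, Dph5 rose 1.89-fold (log2 0.92 ± 0.13, adjusted p = 1.4e-06). Dph7 was also called higher (log2 0.35 ± 0.12, adjusted p = 0.022), but not with scaling to the median, with only the compared groups in the fit, nor without day 0 MC742 (0.30) or day 1 MC542 (0.25). Dph1, Dph2, Dph3, Dph6 and Dnajc24 did not pass, with changes of 0.32, 0.21, 0.24, 0.07 and -0.10. Wdr83 was on the list although it is not a gene of this synthesis, and it did not pass either (-0.24). Furin, the protease that cuts the toxin, fell 2.14-fold (log2 -1.10 ± 0.27, adjusted p = 0.0012). All 3 KDEL receptors fell: Kdelr1 by 1.38 (log2 -1.38 ± 0.21, adjusted p = 5.2e-06), Kdelr2 by 0.91 (log2 -0.91 ± 0.14, adjusted p = 5.6e-06) and Kdelr3 by 1.30 (log2 -1.30 ± 0.30, adjusted p = 0.00064), which was above background on 3 of 4 arrays of each day. The 3 chains of the Sec61 channel of the ER membrane were lower too, Sec61a1 by 1.10 (log2 -1.10 ± 0.20, adjusted p = 7.1e-05), Sec61b by 1.21 (log2 -1.21 ± 0.17, adjusted p = 1.9e-06) and Sec61g by 0.62 (log2 -0.62 ± 0.21, adjusted p = 0.015), the last not with only the compared groups in the fit, without day 0 MC122 (-0.45) or day 1 MC831 (-0.54). Eef2k, the kinase of elongation factor 2 (-0.11 ± 0.42), Lrp1, the receptor of the native exotoxin (-0.72 ± 0.35), and Il2ra (-0.24 ± 0.40) did not pass, although Lrp1 passed with normexp correction or without day 1 MC831 and Wdr83 without day 1 MC541.

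Death and stress genes moved in both directions. Of the p53 targets 12 (40%) of 30 measured genes were called higher and 10 (33.3%) lower (median 0.43), and of the genes of apoptosis and necroptosis 12 (32.4%) of 37 measured genes were called higher and 15 (40.5%) lower (median -0.37). The p53 median was 0.12 with normexp correction and 0.17 without the filter on dim probes. Fas, the death receptor on both lists, had 3.31, 1.98, 3.25 and 3.39 on the day 1 arrays, against -2.71, -3.08, -2.14 and -2.54 on the day 0 arrays. It rose 48.5-fold (log2 5.60 ± 0.36, adjusted p = 1.3e-11), with MC541 again the lowest day 1 mouse and no overlap between the days. Tnfrsf10b, the mouse TRAIL receptor, rose 5.29-fold (log2 2.40 ± 0.25, adjusted p = 1.9e-08), Pmaip1, the BH3-only protein Noxa, 15.1-fold (log2 3.92 ± 0.45, adjusted p = 1.1e-07), and Birc5, survivin, 15.2-fold (log2 3.92 ± 0.27, adjusted p = 4.4e-11). The caspases that fell include Casp6 (log2 -1.91 ± 0.16, adjusted p = 1.5e-09) and Casp9 (log2 -1.82 ± 0.16, adjusted p = 2.1e-09), and so did Tradd, an adaptor of TNF receptor 1 (log2 -1.92 ± 0.17, adjusted p = 1.8e-09). Among p53 targets Trp53inp1 (log2 -1.72 ± 0.25, adjusted p = 2.4e-06), Zmat3 (log2 -1.63 ± 0.16, adjusted p = 1.2e-08) and Ei24 (log2 -1.31 ± 0.25, adjusted p = 9.8e-05) fell. Mcl1, a short-lived survival protein (0.43 ± 0.23), and Btg2, an antiproliferative p53 target (0.58 ± 0.32), did not pass. Each passed with the slide as a block, Mcl1 also with normexp correction and Btg2 with only the compared groups in the fit.

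Genes of the slit diaphragm and foot process fell more often than they rose, and by little. Of 34 genes listed 33 passed the filter on dim probes, and of these 3 (9.09%) were called higher and 14 (42.4%) lower, with a median change of -0.28, and none changed 4-fold. Podxl, the charged surface protein podocalyxin, had 4.56, 6.14, 5.14 and 5.61 on the day 1 arrays, against 6.85, 7.19, 7.08 and 7.12 on the day 0 arrays. No day 1 array reached the lowest day 0 array, and Podxl fell 3.24-fold (log2 -1.70 ± 0.28, adjusted p = 1.9e-05). Thsd7a, a foot process adhesion protein and antigen of membranous nephropathy, fell 3.29-fold (log2 -1.72 ± 0.23, adjusted p = 9.3e-07) and Dag1, dystroglycan, 3.06-fold (log2 -1.61 ± 0.30, adjusted p = 7.8e-05). Inf2, an actin-regulating formin (log2 1.22 ± 0.28, adjusted p = 0.00072), Tjp1, a tight junction scaffold (log2 1.16 ± 0.13, adjusted p = 1e-07), and Nck1, the adaptor that links nephrin to actin (log2 1.07 ± 0.15, adjusted p = 2.6e-06), rose. Without day 0 MC122, without day 1 MC541 or with only the compared groups in the fit, 9 members were called lower.

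Nphs1 had 7.32, 6.91, 7.18 and 7.09 on the day 1 arrays, against 7.79, 7.29, 7.68 and 7.65 on the day 0 arrays. The groups overlapped by the day 1 MC125 and the day 0 MC731 arrays, and the fall of 0.48 was called (log2 -0.48 ± 0.17, adjusted p = 0.019) but not without day 0 MC122 (-0.42), without day 1 MC541 (-0.41) or with only the compared groups in the fit. Synpo, the actin-binding protein synaptopodin, did not pass (log2 -0.28 ± 0.14, adjusted p = 0.1). It passed with the slide as a block. The difference from the EGFP change was called for Podxl (-1.56 ± 0.42, adjusted p = 0.0041) and not for Nphs1 (-0.19 ± 0.25, adjusted p = 0.6).

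Transcription factors of podocytes moved in both directions. All 20 genes listed passed the filter on dim probes, and of these 6 (30%) were called higher and 8 (40%) lower, with a median change of -0.10. Wt1, the master regulator of the lineage, had 8.09, 7.25, 7.29 and 7.85 on the day 1 arrays, against 8.53, 7.96, 8.28 and 8.06 on the day 0 arrays. It was called lower (log2 -0.59 ± 0.21, adjusted p = 0.021), but not without day 0 MC122 (-0.48), day 1 MC541 (-0.47) or day 1 MC542 (-0.48), nor with only the compared groups in the fit. Tcf21, another lineage regulator, fell 3.06-fold (log2 -1.61 ± 0.25, adjusted p = 7.4e-06) and Hoxd8 2.24-fold (log2 -1.16 ± 0.17, adjusted p = 2.4e-06). Zhx2, a zinc finger and homeobox repressor studied in podocyte disease, rose 10.3-fold (log2 3.37 ± 0.38, adjusted p = 7.7e-08), and Tead1, a partner of YAP, 2.86-fold (log2 1.52 ± 0.28, adjusted p = 7.7e-05). Of the signals to the endothelium and the basement membrane, 4 (16%) of 25 measured genes were called higher and 6 (24%) lower (median -0.37). Edn1, the vasoconstrictor endothelin 1, rose (log2 5.30 ± 0.46, adjusted p = 1.5e-09) with 1 of 4 day 0 arrays above background, and the laminin chain Lama1 rose 6.9-fold (log2 2.79 ± 0.44, adjusted p = 9.6e-06). The laminin chain Lamc1 fell 3.85-fold (log2 -1.95 ± 0.25, adjusted p = 6e-07) and the guidance signal Sema3f 4.64-fold (log2 -2.22 ± 0.27, adjusted p = 2.6e-07).

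**Figure D4:**
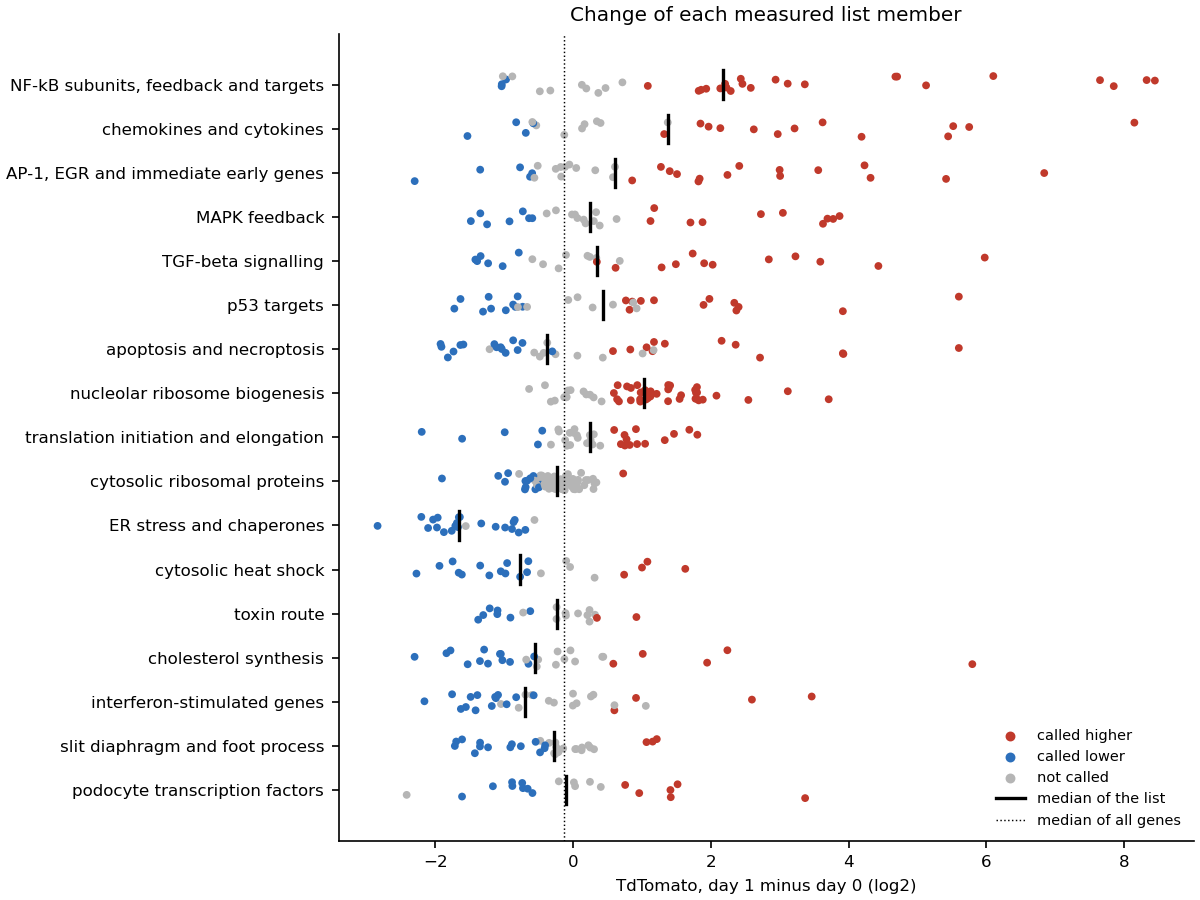
Change in TdTomato podocytes between day 1 and day 0 (log2) of each measured member of 17 gene lists. Points are genes, coloured where limma called them, the black bar is the median of the list and the dotted line the median of all genes (-0.13). The ER list lies wholly to the left, the nucleolar list mostly to the right, and the NF-kB list reaches 8.45 (Ltb).

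Of the markers of podocyte or kidney injury, 6 (22.2%) of 27 measured genes were called higher and 3 (11.1%) lower (median 0.32), no larger shares than among all genes. Cldn1, a claudin of parietal epithelium, rose 19.3-fold (log2 4.27 ± 0.48, adjusted p = 8.5e-08) and Timp1, which blocks matrix metalloproteinases, 12-fold (log2 3.59 ± 0.33, adjusted p = 3.3e-09). Des, desmin, a filament protein that injured podocytes are known to gain, had -1.76, -1.17, -1.34 and -1.03 on the day 1 arrays, against -1.53, -1.55, -1.56 and -1.45 on the day 0 arrays. The groups overlapped and Des did not pass (log2 0.20 ± 0.26, adjusted p = 0.57). Among focal adhesion and actin genes 12 (28.6%) of 42 measured genes were called higher and 11 (26.2%) lower (median -0.03), again near the shares of all genes. The fibronectin receptor chain Itga5 rose 19.8-fold (log2 4.31 ± 0.30, adjusted p = 3.6e-11) and the actin-binding protein Cald1 10.6-fold (log2 3.40 ± 0.30, adjusted p = 2.4e-09), whereas the integrin chain Itgb1 fell 3.05-fold (log2 -1.61 ± 0.22, adjusted p = 1.7e-06) and the talin Tln2 3.24-fold (log2 -1.69 ± 0.16, adjusted p = 5.8e-09).

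Cholesterol synthesis genes fell more often than they rose, with 1 large exception. All 28 genes listed passed the filter on dim probes, and of these 5 (17.9%) were called higher and 13 (46.4%) lower, with a median change of -0.55. With normexp correction the median was -0.31. The isomerase Ebp fell 3.58-fold (log2 -1.84 ± 0.22, adjusted p = 2.1e-07). Mvk, mevalonate kinase, had 10.10, 8.25, 8.69 and 8.96 on the day 1 arrays, against 3.78, 3.01, 2.99 and 3.02 on the day 0 arrays. It rose 55.6-fold (log2 5.80 ± 0.31, adjusted p = 5.7e-13) on its brightest probe and by 6.92 on the other, and the days did not overlap.

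Among interferon-stimulated genes most calls were downward. Of 35 genes listed 31 passed the filter on dim probes, and of these 4 (12.9%) were called higher and 14 (45.2%) lower, with a median change of -0.69. With normexp correction the median was -0.29 and 11 were called lower. Gbp7, a guanylate-binding protein, fell 4.46-fold (log2 -2.16 ± 0.38, adjusted p = 3.9e-05) and Parp14 3.38-fold (log2 -1.76 ± 0.31, adjusted p = 3.2e-05). Ifit3 (log2 3.46 ± 0.27, adjusted p = 2.5e-10) and Ifit2 (log2 2.60 ± 0.21, adjusted p = 4e-10), antiviral RNA-binding proteins, rose. Of the genes of MHC class I and antigen processing 2 (12.5%) of 16 measured genes were called higher and 10 (62.5%) lower (median -0.75). In this list 7 were called lower with only the compared groups in the fit, without day 0 MC742 or without day 1 MC541. With normexp correction or without day 1 MC542 the count was 8. In the cell cycle list 6 (20%) of 30 measured genes were called higher and 13 (43.3%) lower (median -0.33). The helicase subunits Mcm5 (log2 -2.06 ± 0.17, adjusted p = 7.4e-10) and Mcm3 (log2 -2.00 ± 0.23, adjusted p = 9.2e-08) fell and the cyclins Ccna2 (log2 4.00 ± 0.47, adjusted p = 1.7e-07) and Ccnd2 (log2 2.98 ± 0.39, adjusted p = 7.2e-07) rose. In the respiratory chain 6 (13%) of 46 measured genes were called higher and 7 (15.2%) lower (median -0.13), and 15 downward with quantile normalization or 14 with the slide as a block.

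Markers of other cells that a podocyte sort could hold were summed on the linear scale, in multiples of the 75th percentile of the array. Of 20 endothelial markers 0 were called higher and 3 (15%) lower (median -0.56), a smaller share than the 27.9% of all genes. Their sum was 106 to 186 at day 1 and 325 to 475 at day 0. In EGFP cells the median was -1.16 with 0 members called, and the sum was 307 to 330 at day 1 and 324 to 417 at day 0. The brightest of them, Plat and Cldn5, were among the 3, and the other was Kdr. Cldn5 fell 4.57-fold (log2 -2.19 ± 0.20, adjusted p = 4.3e-09) and Plat 1.92-fold (log2 -0.94 ± 0.24, adjusted p = 0.0017), and both are known to be made by podocytes too. Pecam1 stood at -2.39 at day 1 and -2.22 at day 0, and did not pass. The endothelial median within slides was between -2.63 and 1.83, so the direction differed between slides. It was -0.05 without day 1 MC542 and -1.25 without day 1 MC831. Of 15 mesangial markers 1 was called higher (Ptn, 6.67%) and 1 lower (Pdgfrb, 6.67%), both smaller shares than among all genes. Their sums were 3.1 to 6.45 at day 1 and 4.33 to 8.58 at day 0. Without day 1 MC831 5 were called lower, and with the slide as a block 4.

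Myeloid markers summed to 86 to 269 at day 1 and 40.6 to 57.4 at day 0, and 5 of 21 were called higher and 0 lower. That share was 23.8%, the share of all genes. The 5 were Aif1 (at least 58.9-fold), H2-Aa (at least 3.66-fold), Lyz1 (at least 2.84-fold), Fcer1g (log2 2.32) and Csf1r (log2 3.15). All but Csf1r were named after their values were seen. The rise of Lyz1 within slides was between 0.72 (the slide of MC541) and 5.05 (the slide of MC831). H2-Aa rose by 0.22 within the slide of MC541 and by 3.20 to 5.02 within the others. Csf1r, the receptor of Csf1 and Il34, carried most of the sum at day 1, with 7.38, 5.76, 6.54 and 6.37 on the day 1 arrays, against 3.82, 3.13, 3.50 and 2.99 on the day 0 arrays. Its other probes gave 0.68 and 3.70, so the probes disagree in size. The pan-leukocyte gene Ptprc (-4.61 and -4.99) and the macrophage genes Lyz2 (-6.35 and -7.03) and C1qa (-6.38 and -7.05) had dim mean levels at day 1 and day 0. None of them passed, and Itgax was not above background on any of the 8 arrays. Lyz2 and C1qa were each above background on 1 of 4 day 1 arrays and on no day 0 array. Within the slide of MC831 the changes were 3.86 for Lyz2, 2.95 for C1qa and 1.19 for Ptprc. Within the other slides they were between -0.56 and 0.62. Itgam, at 5.82 at day 1 and 5.23 at day 0, did not pass (log2 0.59 ± 0.32, adjusted p = 0.13). It passed with the slide as a block or without day 1 MC541. With normexp correction 3 myeloid markers were called. The median of the list within slides was between -0.27 (the slide of MC541) and 1.19 (the slide of MC831). Without day 1 MC831 it was -0.18 and 5 markers were called higher. The part that leukocytes in the sort may have in the chemokine and NF-kB values was not tested.

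Parietal epithelial markers had 4 calls upward (30.8%) and 1 downward (7.69%) among 13, against 23.8% and 27.9% of all genes. Their sums were 30.9 to 53.5 at day 1 and 20.7 to 24.7 at day 0, and the list holds Cldn1, which is also counted as an injury marker. The scaffold protein Akap12 rose 4.89-fold (log2 2.29 ± 0.31, adjusted p = 1.2e-06) and the adhesion molecule Ncam1 fell 4.24-fold (log2 -2.08 ± 0.17, adjusted p = 6.5e-10). Of 20 proximal tubule markers 3 (15%) were called higher and 1 (5%) lower, both smaller shares than among all genes. Their sums were 5.83 to 9.54 at day 1 and 2.5 to 23.4 at day 0. The 3, named after their values were seen, were the glutathione-cleaving enzyme Ggt1 (log2 6.44 ± 0.64), the endocytic receptor Cubn (log2 2.61 ± 0.35) and Ttc36 (log2 2.50 ± 0.68), above background on 2, 3 and 2 of 4 day 0 arrays. Gatm, of creatine synthesis, was the 1 that fell (log2 -1.66 ± 0.41, adjusted p = 0.0015), and Kap, the brightest, did not pass (log2 -1.88 ± 1.89, adjusted p = 0.44). Their median was -0.47 in TdTomato and 1.35 in EGFP cells, and within slides it was between -1.81 and 0.41. The sums were 3.19 to 9.65 at day 1 and 2.8 to 5.94 at day 0 for 12 distal nephron markers (0 called in either direction), 4.46 to 8.44 at day 1 and 5.76 to 12 at day 0 for 11 lymphocyte markers (1 called lower, Cd3e) and 0.653 to 1.37 at day 1 and 0.202 to 1.19 at day 0 for 7 erythrocyte and platelet markers. Of the last, 2 (28.6%) were called higher and 0 lower, and the 1 lymphocyte call was 9.09% of the measured lymphocyte markers. Itga2b was higher (at least 11.1-fold), while the haemoglobin gene Hba-a1 (-1.69) and the anion exchanger Slc4a1 (-0.41) did not pass. Hsd11b2 of the distal nephron, Cd3d of T cells and Epb42 and Pf4 of the blood lineages were not above background on any of the 8 arrays. The brightest distal markers, Umod (0.84) and Aqp2 (-0.44), and lymphocyte markers, Cd4 (-0.11) and Cd22 (-0.11), did not pass. The part of these cells in the values above was not tested.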

How the data were processed

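Podocytes were sorted by TdTomato or EGFP fluorescence from glomeruli, and 0.1 µg of RNA per sample was labelled with Cy3, per the labels' protocols. The authors deposited scanner output whose spot intensity values are background-subtracted processed signals of Agilent Feature Extraction 11.5.1.1, per the file headers. The authors also deposited a value table of log2 values, which served as an alternative. Its column medians ran from -3.18 to -2.33, and no label or header states its scaling. In 27 of 29 columns the array of the same sample was the closest, with values above the main ones by a median of 0.125 to 0.216. The 2 columns of mouse MC221 at day 7, which here give only to the estimate of the spread, lay closer to another array, so which array is theirs is not settled.

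Control spots and spots flagged as outliers were left out, spots of 1 probe were averaged on the log2 scale, and each array was scaled to its 75th percentile. Probes named through RefSeq accessions (26582 of 55681 with 1 symbol, 29099 with none, 0 with several) and well above background on at least 3 of 29 arrays were kept, the brightest of each gene, which gave 15628 genes. Limma 3.58.1 (R 4.3.3) fitted 8 group means over 29 arrays, so that all groups shared 1 estimate of the spread, and called genes at a Benjamini-Hochberg adjusted p under 0.05. Its p-values measure the spread between mice within a group. The main fit takes no account of the TdTomato and EGFP arrays that share a mouse. The fit was checked on simulated data with few changed genes and independent noise on each array. The pairing of arrays and the scaling were not checked there. Tables were made with Python 3.11.15, numpy 2.4.6, pandas 2.3.3, scipy 1.17.1 and matplotlib 3.10.9.

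TdTomato and EGFP arrays of a mouse come from the same animal, and their deviations from the group means correlated at 0.0414 to 0.636 over 13 mice. Alternatives changed the background correction, scaling, filter, probe choice, samples in the fit, slide and mouse blocks and left out each array. Normexp correction used the median spot signal, a choice made after the files were seen, as were the classes by fold, level and array. The comparison, its gene lists and the rule for named genes were chosen with earlier results of these data known. That rule took 8 fixed genes, the 10 largest rises and falls with no overlap of groups, up to 4 list members a direction (the text gives up to 3), all toxin route genes, the largest differences from EGFP and the 2 brightest markers of each other cell type, of which a few are not reported here. Of the fixed genes, Cxcl16, Icam1 and Epha8 were given with the comparison as genes that mark the day 1 TdTomato arrays. Their rises were therefore known beforehand. Of the windows in RefSeq's promoter table (GRCm38.p6), 12408 tested genes had 1 or more.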

Additional observations from a re-analysis of the deposited data

Results flagged for a closer look

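For 18 of 312 groups of 4 TdTomato arrays, taken over the genes named in the report, 1 array lay far from the other 3 by Dixon's test, and chance alone gives about 1 group in 20. The day 1 array of MC541 lay below the other 3 for Nrg1 (1.40), Cxcl2 (-3.30), Fas (1.98), Tnfrsf10b (0.24) and Mcl1 (6.82). The day 1 array of MC125 lay below the other 3 for Gpt2 (-6.63). The day 1 array of MC542 lay below the other 3 for Smurf1 (-2.76). The day 0 array of MC122 lay above the other 3 for Trp53i11 (4.14), Cxcl12 (6.16), Ephb1 (4.35), Mvk (3.78) and Ebp (6.00). The day 0 array of MC122 lay below the other 3 for Sdf2l1 (1.72) and Kdelr3 (-4.36). The day 0 array of MC742 lay above the other 3 for Cxcl16 (-3.47), Edn1 (-3.97), Lrp1 (-1.18) and Dnajb4 (3.47). Values are log2 levels after subtraction of the array's 75th percentile. Without the array in question the TdTomato call was lost for Cxcl12 and for no other of the 16 genes among them that were called, and Lrp1 and Mcl1 were not called either way. No cause was tested.

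For 113 of the named genes the change between day 1 and day 0 differed between TdTomato and EGFP podocytes in limma's interaction test, with Benjamini-Hochberg adjustment over all 15628 genes at 0.05. A test of the same kind passed for 38.4% of all genes, so such a difference was common. Many named genes were chosen for a large called change in TdTomato cells, and a few for the largest differences themselves. The count of 113 follows in part from that choice. The value given is the TdTomato change minus the EGFP change on the log2 scale (n = 4 and 4 arrays in TdTomato, 3 and 4 in EGFP). Of the genes fixed by name the difference was positive for Cxcl16 (7.16), Icam1 (7.00) and Epha8 (6.57) and negative for Podxl (-1.56). Cxcl16, Icam1 and Epha8 had been given as genes that mark the day 1 TdTomato arrays, so their positive differences follow in part from that choice. Among the largest rises the difference was positive for Psors1c2 (7.96), Pkp1 (6.89), Dner (7.17), Tmprss9 (8.12), Gli1 (7.94), Col22a1 (7.65), Ptprn (8.28), Kcnk10 (6.85) and Elf5 (7.05). Among the largest falls the difference was negative for Vat1l (-4.61), Sucnr1 (-3.61), Mnd1 (-3.11), Ccdc71l (-2.14), Trp53i11 (-2.27), Gmnn (-2.67), Sdf2l1 (-2.57), Kcnj12 (-2.56) and Syna (-2.69). Among slit diaphragm and foot process genes the difference was positive for Inf2 (1.12), Tjp1 (1.20) and Nck1 (1.02) and negative for Thsd7a (-1.58) and Dag1 (-1.38). Among podocyte transcription factors the difference was positive for Zhx2 (3.59) and Tead1 (1.83) and negative for Tcf21 (-2.00) and Hoxd8 (-1.13). Among signals to the endothelium and basement membrane the difference was positive for Edn1 (5.42) and Lama1 (3.87) and negative for Sema3f (-1.53) and Lamc1 (-1.73). On the route of the toxin the difference was positive for Dph5 (0.81) and negative for Furin (-1.01), Kdelr1 (-1.21), Kdelr2 (-1.13), Kdelr3 (-1.57), Sec61a1 (-1.19), Sec61b (-1.51) and Sec61g (-0.93). Among immediate early genes the difference was positive for Myc (6.77), Egr4 (6.66) and Maff (4.61) and negative for Klf2 (-1.81). Among MAP kinase genes the difference was positive for Gadd45b (3.66) and Dusp14 (3.98) and negative for Mapk14 (-1.36) and Mapk9 (-1.24).

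In the EGF receptor family the difference was positive for Nrg1 (7.30) and Egfr (5.61) and negative for Adam10 (-1.79) and Erbb2 (-1.43). In the NF-kB list the difference was positive for Ltb (6.13), Bcl3 (6.91) and Nfkbid (6.51) and negative for Traf1 (-1.22), Bcl2l1 (-1.12) and Tnip2 (-1.02). Among chemokines and cytokines the difference was positive for Cxcl10 (5.87) and Cxcl2 (5.51) and negative for Il34 (-1.36). Among Eph receptors and ephrins the difference was positive for Epha6 (4.60) and negative for Ephb1 (-2.12). Among p53 targets the difference was positive for Fas (5.51), Pmaip1 (4.06) and Tnfrsf10b (2.58) and negative for Trp53inp1 (-2.06), Zmat3 (-1.56) and Ei24 (-1.40). Among ATF4 genes the difference was positive for Slc3a2 (3.03) and Fgf21 (2.35) and negative for Gpt2 (-2.22). Among ER chaperones the difference was negative for Manf (-2.44) and Pdia4 (-2.25). Among heat shock genes the difference was positive for Dnajb4 (1.96) and Hspa4 (0.87). Among ribosomal proteins the difference was negative for Rps24 (-1.93) and Rps20 (-0.96).

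Among nucleolar genes the difference was positive for Gnl3 (3.77), Nop58 (2.91) and Ltv1 (2.46). Among genes of cell death the difference was positive for Birc5 (4.63) and negative for Tradd (-1.92), Casp6 (-1.88) and Casp9 (-1.67). Among injury markers the difference was positive for Cldn1 (3.85) and Timp1 (2.91). Among adhesion and actin genes the difference was positive for Itga5 (4.26) and Cald1 (3.49) and negative for Tln2 (-1.50) and Itgb1 (-1.51). In the TGF-beta pathway the difference was positive for Ltbp2 (6.12) and Tgif1 (4.22). Among interferon-stimulated genes the difference was positive for Ifit3 (3.73) and Ifit2 (2.66) and negative for Gbp7 (-2.11) and Parp14 (-1.70). Among cholesterol genes the difference was positive for Mvk (4.84) and negative for Ebp (-1.70). Among cell cycle genes the difference was positive for Ccna2 (3.96) and Ccnd2 (3.60) and negative for Mcm5 (-2.11) and Mcm3 (-2.32). Among markers of the glomerular endothelium the difference was negative for Cldn5 (-2.00).

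Among markers of the mesangium and smooth muscle the difference was negative for Pdgfrb (-1.36). Among markers of the parietal epithelium the difference was positive for Akap12 (2.56) and negative for Ncam1 (-1.90). Among markers of the proximal tubule the difference was negative for Gatm (-2.06). Among markers of myeloid cells the difference was positive for Csf1r (3.35). Of the largest differences, not counted above, the difference was positive for Gng4 (8.54).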

How the results depend on the processing

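Over 18 alternatives limma called 3151 to 4354 genes higher and 3835 to 5351 lower in TdTomato podocytes, against 3725 and 4366 in the main analysis. The difference from EGFP had more alternatives, as single EGFP arrays were also left out and a fixed mouse block was fitted. It gave 2115 to 3964 calls upward and 2492 to 4592 downward. With only the TdTomato groups of days 1 and 0 in the fit the TdTomato counts were 3335 and 3835. The fewest rises came with scaling to the median of the spots and the most with the slide as a block. The 4 rises in EGFP podocytes were less stable: 0 genes were called with normexp correction or with only the EGFP groups in the fit, and 0 to 6 when 1 EGFP array was left out (0 without day 0 MC731 or MC742 or day 1 MC542, 2 without day 0 MC122 or MC753). With the slide as a block 1 gene was called lower in EGFP cells. TdTomato and EGFP arrays of 1 mouse are paired, and with the mouse as a random replicate block 3750 genes were called higher and 4431 lower in TdTomato cells and 3964 and 4580 in the difference, or 3820 and 4592 with a fixed replicate block. No named gene lost its TdTomato call under the block. Of the 156 named genes 135 kept the same call and direction in all 18 alternatives, 12 lost a call in at least 1, 9 gained one and 0 called values changed sign. The calls lost are given beside the genes in the report. Leaving out an array makes a group smaller, and fitting only the compared groups leaves fewer arrays for the estimate of the spread. No cause of a lost call was tested. The median change of all genes, -0.13, was -0.04 without day 0 MC122 and -0.20 without filter on dim probes or without day 0 MC731. The share of spots above background differed by 0.747 to 5.20 percentage points when 1 array was left out and by 2.82 under Agilent's other detection flag, and no setting passed. Signal over background limits the folds of genes that were dim on 1 day. Within-slide values have no test.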
